A study of Mus musculus with 12 samples.

Results

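The 9 genes described here encode proteases, components and a regulator of the complement system: C1rl, C1ra, C1s1, C2, C3, C4a, C4b, Cfb and Serping1. They were taken by gene name from 28075 genes counted in either of 2 tables of prostate messenger RNA, 1 for each of the F1 and F3 generations, and all 9 were present in both tables and passed the filter on low counts in both. Measured values entered the choice, but the rule does not state which. C1rl was already known to differ between the F1 groups, so the set is treated here, as an assumption, as chosen by F1 values. The F1 values of the 9 genes are therefore a description, and F1 counts past a threshold are printed with nothing read from them. Tests are given for the F3 libraries, which are separate samples, and they are independent of the choice only under that assumption.

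Pregnant mice (F0) received chlordecone, an organochlorine insecticide also known as kepone, at 100 µg/kg/day from E6.5 to E15.5 of embryonic development, and their descendants were bred through to F3. Prostates of F1 males, carried by the dosed females, and of F3 males, descended from them, were compared with prostates labelled control of the same generation. The groups were F1 control (2 libraries analysed here, replicates 1 and 2), F1 chlordecone (3), F3 control (3) and F3 chlordecone (3). The labels give no strain, age, vehicle or lobe, and do not say whether a sample was 1 animal or a pool or which samples shared a litter, so p-values measure only the spread between these samples. No allele or transgene is named for any group.

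Complement is a cascade of plasma proteins that coats and lyses targets and recruits leukocytes. In the classical pathway the protease C1r activates C1s within the C1 complex, C1s cleaves C4 and C2, and their fragments form the convertase that cleaves C3, the central component. In the alternative pathway factor B takes the place of C2. The C1 inhibitor, encoded by Serping1, inactivates C1r and C1s. The liver makes much of the plasma pool, and epithelium, fibroblasts and macrophages also make these proteins locally.

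Library totals were 17228539 to 28061760 counts in F1 and 71672418 to 114762135 in F3, so low genes were counted more finely in F3. Pbsn, which encodes probasin, a defining secretory product of the mouse prostate, was at 37323 to 86408 CPM (library-scaled counts, with TMM factors) in the 5 F1 libraries, where chlordecone 2 was lowest, and at 17322 to 33248 CPM in the 6 F3 libraries. Over 5 luminal epithelial markers (Pbsn, Hoxb13, Krt8, Krt18 and Tgm4), the F1 log2 fold change was below 0 for 4 (median -0.23). The groups were apart and lower for 2 of the 5 (15.1% of all genes). Of the 5, 0 passed in F1 with edgeR and 1 with DESeq2 (3.99% of all genes). An unadjusted p under 0.05 was found for 2 with edgeR (11.5% of all genes). The 5 markers summed to 95281 and 80208 CPM in controls 1 and 2 and 85797, 40434 and 89667 CPM in chlordecone 1, 2 and 3. Some F1 libraries stood apart from the others of their group. Markers of vas deferens and epididymis summed to 24.9 and 25.7 CPM in the F1 controls and to 44290, 105 and 13929 CPM in F1 chlordecone 1, 2 and 3, and stayed at or below 0.351 CPM in F3. Seminal vesicle markers summed to 117534 and 120221 CPM in the F1 controls, 186533 to 528807 CPM in F1 chlordecone and 9.59 to 67.0 CPM in F3. The part of the epithelial, vas deferens and seminal vesicle markers in the F1 results below was not tested.

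The C1r and C1s genes lie together on chromosome 6 (GRCm38, GENCODE M21): C1rl at 124493113 to 124510643 (plus strand), C1ra at 124512405 to 124523443 (plus strand) and C1s1 at 124530345 to 124542359 (minus strand). C1rl encodes a C1r-like secreted protease, known for cleaving the haptoglobin precursor, and C1ra and C1s1 encode the mouse C1r and C1s proteases. The C1rl, C1s1 and C3 upstream sequences are shown because their F1 groups did not overlap, C1rl lower and C1s1 and C3 higher after chlordecone. F1 groups were also apart for C1ra, whose window (starting at 124512371) runs into the annotated gene and is not shown, and for Cfb. They are the 250 bases before the gene start from RefSeq (GRCm38.p6), 5′ to 3′ on the gene's strand, at chr6:124492863-124493112, chr6:124542360-124542609 and chr17:57228137-57228386. Capitals mark matches on either strand to GGTCA (part of the oestrogen receptor's element), 1 of 3 motifs searched, with TATAAA and TTCNNNGAA.
C1rl: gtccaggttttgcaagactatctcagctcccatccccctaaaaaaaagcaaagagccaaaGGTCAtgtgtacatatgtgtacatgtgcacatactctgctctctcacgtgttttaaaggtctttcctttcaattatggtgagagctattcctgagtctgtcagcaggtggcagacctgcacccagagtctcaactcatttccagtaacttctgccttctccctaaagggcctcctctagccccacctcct
C1s1: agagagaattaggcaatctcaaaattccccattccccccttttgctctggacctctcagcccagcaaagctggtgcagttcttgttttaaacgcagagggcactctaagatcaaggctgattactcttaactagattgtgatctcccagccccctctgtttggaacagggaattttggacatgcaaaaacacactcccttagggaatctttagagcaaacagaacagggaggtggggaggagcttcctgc
C3: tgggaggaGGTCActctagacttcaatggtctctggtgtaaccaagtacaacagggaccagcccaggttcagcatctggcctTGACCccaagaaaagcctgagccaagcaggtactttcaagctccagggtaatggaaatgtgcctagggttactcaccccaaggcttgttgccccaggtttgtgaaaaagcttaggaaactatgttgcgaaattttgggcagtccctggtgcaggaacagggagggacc
GGTCA stood 190 bases before the C1rl start, and 242 and, on the other strand, 168 bases before the C3 start. The C1s1 window held none of the 3 motifs. Over 32851 promoter entries of this length, 35.2% held GGTCA, 12.4% TATAAA and 7.02% TTCNNNGAA. TATAAA and TTCNNNGAA had no match in these 3 windows.

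C1rl was the member with the largest difference in F1. Its level was 85.8 and 75.6 CPM in F1 control 1 and 2, and 5.82, 5.18 and 2.26 CPM in F1 chlordecone 1, 2 and 3 (raw counts 1638 and 1613 against 147, 95 and 49). The 3 chlordecone libraries lay far below both controls, and the groups did not overlap. The mean was 80.7 ± 7.24 CPM (SD, n = 2) in controls and 4.42 ± 1.90 CPM (SD, n = 3) after chlordecone, 18.3-fold lower, a log2 fold change of -4.19 (SE 0.41). No 50-base window of C1rl occurs in another annotated gene (0%), so its close relatives C1ra and C1rb share none of these windows with it. Without F1 chlordecone 1, 2 or 3 the F1 log2 fold change was -4.44, -4.31 or -3.87, and without control 1 or 2 it was -4.08 or -4.27. C1rl no longer passed the threshold without control 1, control 2 or chlordecone 3. In F3 the levels were 71.3, 57.7 and 121 CPM in controls 1 to 3 and 123, 90.0 and 116 CPM in chlordecone 1 to 3. Control 3 lay among the chlordecone libraries, and the groups overlapped (83.4 ± 33.4 against 110 ± 17.3 CPM, SD, n = 3 each, log2 fold change 0.39, SE 0.26). edgeR's quasi-likelihood test with Benjamini-Hochberg adjustment gave an adjusted p of 0.588 for F3 C1rl, and the 95% interval of the log2 fold change ran from -0.21 to 0.996.

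**Figure D1:**
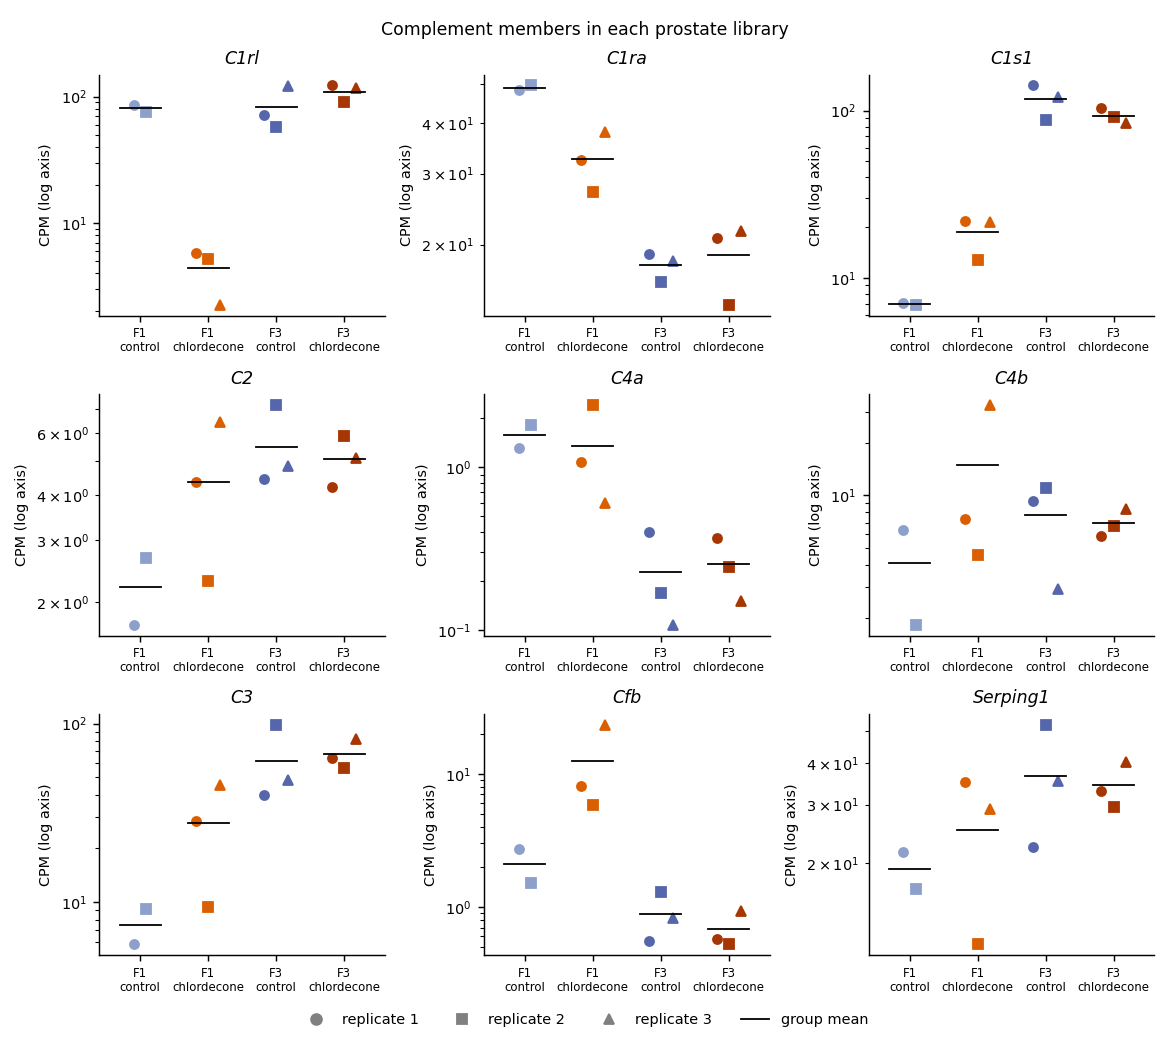
Level of each of the 9 genes in every library (CPM, log axis; symbols are replicates, black lines group means). F1 chlordecone libraries of C1rl lie at 2.26 to 5.82 CPM, below every other library (57.7 CPM or more), whereas C1s1, C3 and Cfb are higher in F1 chlordecone than in F1 control.

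C1ra, the C1r protease gene, was lower in F1 chlordecone by a small margin. It stood at 48.4 and 49.6 CPM in the F1 controls and 32.5, 27.0 and 38.1 CPM after chlordecone, so the groups did not overlap (1.51-fold lower on average, log2 fold change -0.59, SE 0.25). In F3 it was 18.95, 16.2 and 18.2 CPM in controls and 20.8, 14.2 and 21.6 CPM after chlordecone. The F3 groups overlapped (log2 fold change 0.09, SE 0.18, adjusted p = 0.871, edgeR). Of its 50-base windows, 50.8% also occur in another gene, chiefly its near copy C1rb, so its level is uncertain.

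C1s1, the C1s protease gene, was higher in F1 chlordecone, whereas C1rl was lower. It was at 7.07 and 6.89 CPM in the F1 controls and 21.8, 12.7 and 21.5 CPM after chlordecone, 2.67-fold higher on average with no overlap (6.98 ± 0.131, SD, n = 2, against 18.7 ± 5.16 CPM, SD, n = 3, log2 fold change 1.42, SE 0.35). In F3 it was at 141, 88.3 and 121 CPM in controls and 104, 91.2 and 83.9 CPM after chlordecone, which overlapped. The log2 fold change was -0.33 (SE 0.18, adjusted p = 0.526, edgeR). C1s1 shares 21.9% of its windows with C1s2, and its exons overlap an antisense gene, Gm16567, over 576 bases. The strand setting of the counting is not given, so reads of the pair cannot be told apart over these 576 of the 3129 exon bases of C1s1. Gm16567 was at 8 to 65 counts in the F3 libraries and was not listed in F1.

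Most counts of the cluster belonged to C1rb and C1s2, close copies of C1ra and C1s1 that are not among the 9. C1rb stood at 1117 and 1048 CPM in F1 controls and 940, 778 and 919 CPM after chlordecone, and C1s2 at 1524 and 1379 against 891, 955 and 1051 CPM. Neither passed the threshold (adjusted p = 0.761 and 0.511, edgeR), although the groups of both lay apart in F1. Within the 5 genes, C1rl made up 3.08% (exact binomial 95% interval 2.94 to 3.23) and 2.95% of counts in F1 control 1 and 2. It made up 0.308% (0.260 to 0.362), 0.291% and 0.111% in F1 chlordecone 1, 2 and 3, and 1.07 to 2.49% in F3, intervals covering counting error only. C1s1 made up 0.254% and 0.269% of cluster counts in the F1 controls and 1.15%, 0.715% and 1.06% after chlordecone. Per kilobase of exon, C1rl stood at 28.5 and 25.1 CPM per kb in the F1 controls, C1rb at 460 and 431 CPM per kb and C1s2 at 573 and 518 CPM per kb.

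**Figure D2:**
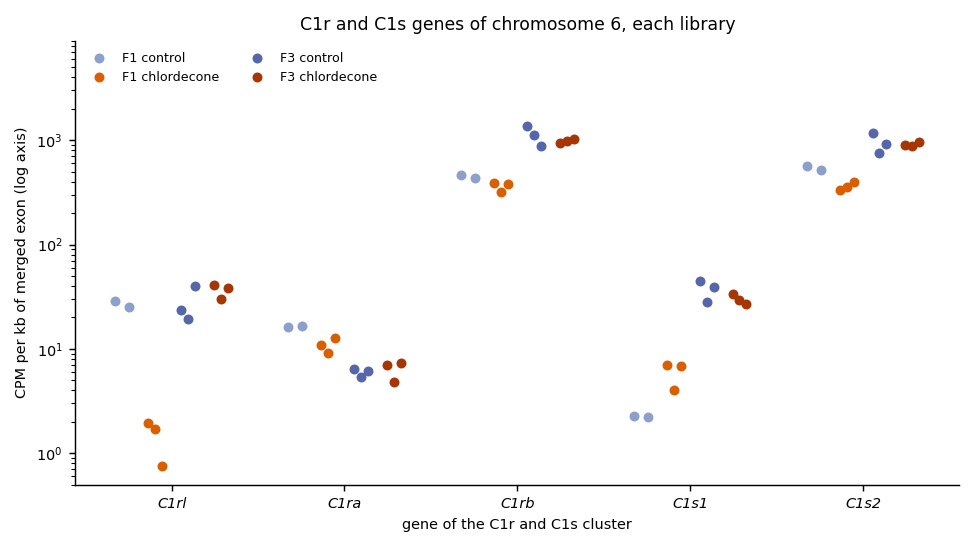
Level per kilobase of merged exon of the 5 genes of the chromosome 6 cluster in each library (CPM per kb, log axis, points are libraries, coloured by group). C1rl in F1 chlordecone (0.749 to 1.93) lies far below its F1 controls (25.1 and 28.5), while C1s1 lies above its F1 controls and C1rb and C1s2 lie far above the other genes.

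C2 and C4, which form the classical convertase, had overlapping groups in both generations. C2 (chromosome 17, 34862604 to 34898265, minus strand) was at 1.73 and 2.67 CPM in the F1 controls and 4.35, 2.29 and 6.44 CPM after chlordecone, with overlap (log2 fold change 0.99, SE 0.65). In F3 it was at 4.44, 7.19 and 4.83 CPM against 4.23, 5.87 and 5.11 CPM (log2 fold change -0.11, SE 0.24, adjusted p = 0.872, edgeR). The 2 C4 genes share 30.6% of the windows of C4a and 34.6% of those of C4b with each other. C4b (34728380 to 34743882) was at 6.34 and 1.83 CPM in the F1 controls and 7.33, 4.58 and 32.7 CPM after chlordecone, where library 3 was highest. F3 levels of C4b were 9.23, 11.0 and 2.91 CPM in controls and 5.87, 6.65 and 8.40 CPM after chlordecone (log2 fold change -0.14, SE 0.42, adjusted p = 0.912, edgeR). C4a (34809092 to 34823464), known in mouse as sex-limited protein, was at 13 to 44 counts in F1 libraries (1.31 and 1.83 against 1.07, 2.40 and 0.598 CPM) and at 12 to 41 counts in F3 (0.402, 0.170 and 0.108 against 0.368, 0.244 and 0.151 CPM). With so few counts no difference in C4a could be resolved (F1 log2 fold change -0.21, SE 0.94, F3 0.17, SE 0.58, adjusted p = 0.919).

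C3 (chromosome 17, 57203970 to 57228136, minus strand) was higher in F1 chlordecone. It was at 5.82 and 9.14 CPM in the F1 controls and 28.7, 9.43 and 45.0 CPM after chlordecone, so library 2 lay just above the controls and libraries 1 and 3 well above them (3.71-fold higher on average, log2 fold change 1.89, SE 0.61). In F3 the levels were 39.9, 98.0 and 48.1 CPM in controls and 63.9, 56.3 and 81.5 CPM after chlordecone (log2 fold change 0.12, SE 0.32, adjusted p = 0.901, edgeR), with overlap. C3 has no window shared with another gene.

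Cfb, the alternative pathway factor B (chromosome 17, 34856374 to 34862518, minus strand), was also higher in F1 chlordecone. Its levels were 2.72 and 1.5 CPM in F1 controls and 8.16, 5.83 and 23.2 CPM after chlordecone, 5.88-fold higher on average with no overlap (log2 fold change 2.56, SE 0.70). In F3 they were 0.550, 1.29 and 0.822 CPM in controls and 0.575, 0.523 and 0.934 CPM after chlordecone (log2 fold change -0.38, SE 0.40, adjusted p = 0.726, edgeR), with overlap. Cfb and C2 share windows with an annotated read-through model, Gm20547 (73.0% of Cfb and 38.7% of C2), which is in neither table.

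Serping1, the C1 inhibitor gene (chromosome 2, 84765387 to 84775444, minus strand), had groups that overlapped in both generations. It was at 21.6 and 16.7 CPM in the F1 controls and 35.0, 11.4 and 29.0 CPM after chlordecone, with chlordecone 2 lowest of the 5 (log2 fold change 0.39, SE 0.45). In F3 it was at 22.4, 52.0 and 35.3 CPM in controls and 33.0, 29.6 and 40.4 CPM after chlordecone (log2 fold change -0.09, SE 0.28, adjusted p = 0.912, edgeR). In bulk prostate fewer cells of a type and less RNA per cell cannot be told apart.

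In F1, 1 of 9 members passed an adjusted p under 0.05 with edgeR (C1rl), against 0.0281% of 17804 genes. The set is treated as chosen on this contrast, so nothing is read from the F1 counts. There 6 lay above 0 and 3 below, with a median log2 fold change of 0.99 against 0.02 over genes tested. The groups did not overlap for 5 (3 higher and 2 lower) against 31.3% of genes (16.2% higher and 15.1% lower). DESeq2 passed 3 of the 9 in F1 (C1rl, C1s1 and Cfb) against 3.99% of genes, and edgeR passed 4 (C1rl, C1s1, C3 and Cfb) without F1 chlordecone 2, when 2604 of all genes passed. Without that library the log2 fold changes were 1.63 for C1s1, 2.29 for C3 and 2.89 for Cfb. In F3, 0 of 9 passed with edgeR against 0.0596% of 16766 genes, 0 of 9 had an unadjusted p under 0.05 (10.6% of genes) and 0 of 9 passed with DESeq2 (1.48% of genes). In F3, 4 lay above 0 and 5 below, with a median of -0.09, and the groups overlapped for 9 of 9 (16.6% of genes did not overlap).

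**Figure D3:**
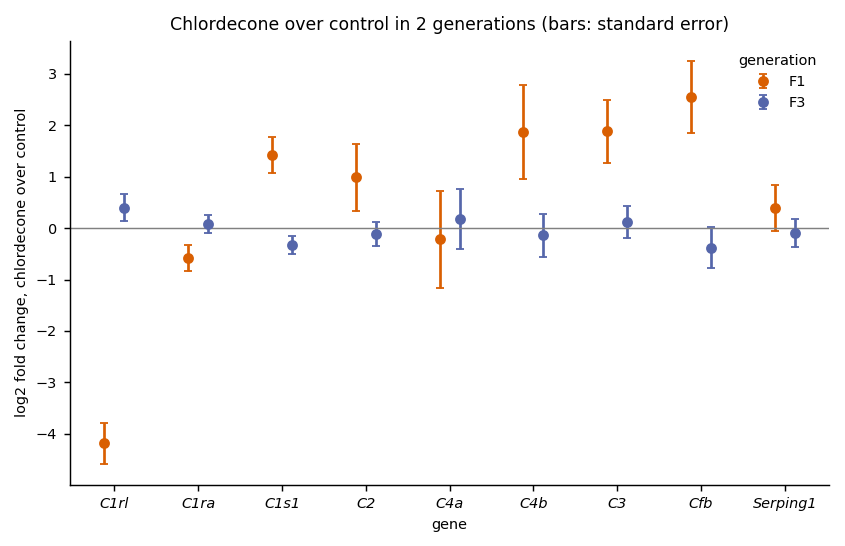
log2 fold change of chlordecone over control for the 9 genes in F1 and F3 (points, bars are SE). In F1 C1rl lies at -4.19 and Cfb at 2.56, and in F3 the 9 values lie between -0.38 and 0.39.

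The difference between generations, F3 minus F1 on the log2 scale, was 4.66 (SE 0.48) for C1rl, -1.68 (SE 0.36) for C1s1 and -2.86 (SE 0.81) for Cfb. These differences contain the F1 contrast and are a description. C1rl was the 1 member of 9 past the threshold for the difference, against 0.718% of 16980 genes. Of complement genes outside the 9, Clu (-6.38, SE 0.93), C7 (-3.16, SE 0.64) and C1qc (-3.11, SE 0.65) also passed it. Their adjusted p were 0.00876, 0.0454 and 0.0474 (edgeR), and these values contain the F1 contrast too.

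Levels of different genes are given per kilobase of merged exon in GENCODE M21. Of the matched F1 genes, 2.11% had the M21 start and end in the deposited table, so exon lengths, shared windows and neighbours are those of M21 and may differ from the gene models behind the F1 counts. In F1 controls the order was C1rl (26.8 CPM per kb), C1ra (16.4), Serping1 (8.24), C1s1 (2.23) and C3 (1.45), then Cfb (0.748), C4b (0.717), C2 (0.568) and C4a (0.253), with Cfb, C4b and C2 within each other's spread. In F1 chlordecone C1ra (10.9) and Serping1 (10.8) led within overlapping spread. C1rl (1.47, from 0.749 to 1.93) lay among C4b (0.804 to 5.75) and C2 (0.591 to 1.66), and the order of these 3 was not resolved. In F3 controls C1s1 (37.4 ± 8.54, SD, n = 3) and C1rl (27.7 ± 11.1) led, and their spreads overlapped, followed by Serping1 (15.7) and C3 (12.1). In F3 chlordecone C1rl (36.4) and C1s1 (29.7) led. C4a was lowest in each of the 4 groups. Levels of 6 of the 9 genes carry the read uncertainty given above, which bears on this order.

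Markers of other cells also differed between libraries. In F1 chlordecone 3, where Cfb, C3 and C4b were highest, 6 macrophage markers summed to 277 CPM, against 31.4 to 61.2 CPM in the other 4 F1 libraries, with Lyz2 at 247 CPM. Of these 6, 5 had a log2 fold change above 0 in F1. Their groups were apart for 0 on the higher side (16.2% of all genes) and for 1, Cd163, on the lower side (15.1%). Without F1 chlordecone 3 the F1 log2 fold change was 1.73 for Cfb (2.56 with it), 1.35 for C3 (1.89 with it) and 0.55 for C4b (1.87 with it). The 12 interferon-response genes summed to 57.5 and 63.2 CPM in F1 controls and 85.1, 59.2 and 122 CPM in F1 chlordecone 1, 2 and 3. In F1, 9 of them lay above 0 and 3 below. Their F1 groups were apart for 6 on the higher side (16.2% of all genes) and 2 on the lower side (15.1%). Smooth muscle markers summed to 1960 and 1969 CPM in F1 controls and 3070 to 6520 CPM in F1 chlordecone. Their groups were apart and higher for 6 of 6 genes, against 16.2% of all genes. The part of these markers in the complement values was not tested. Hepatocyte markers were near 0 in F3 (at most 0.311 CPM summed). Their highest F1 sum, 35.5 CPM, belonged to chlordecone 1, and came mostly from the markers Fgb (18.7 CPM) and Apoa2 (14.2 CPM). Albumin (Alb) ranged from 0.491 to 0.737 CPM over the F1 chlordecone libraries (0.515 CPM for library 1), against 0 CPM for both F1 controls. Other hepatocyte markers were highest in a control. Apoa1 was at 1.94 CPM in F1 control 1 and 0.515 to 1.29 CPM after chlordecone. Ahsg was at 0.844 CPM in F1 control 2 and 0 to 0.644 CPM after chlordecone. Of the 6 markers, 2 were tested in F1, with 1 above 0 and 1 below. The hepatocyte sum of chlordecone 2 (2.62 CPM) fell below those of control 1 (3.72 CPM) and control 2 (7.31 CPM). For chlordecone 3 the sum was 12.4 CPM. In F3 the log2 fold change was below 0 for 12 of 12 interferon-response genes. The groups were apart for 7 of the 12 (16.6% of all genes), and 0 passed with edgeR. Of the 12, 8 had an unadjusted p under 0.05 (10.6% of all genes) and 3 passed with DESeq2 (1.48%). The 12 genes summed to 115 to 180 CPM in controls and 78.7 to 96.1 CPM after chlordecone. The F3 groups of the 9 complement genes overlapped.

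**Figure D4:**
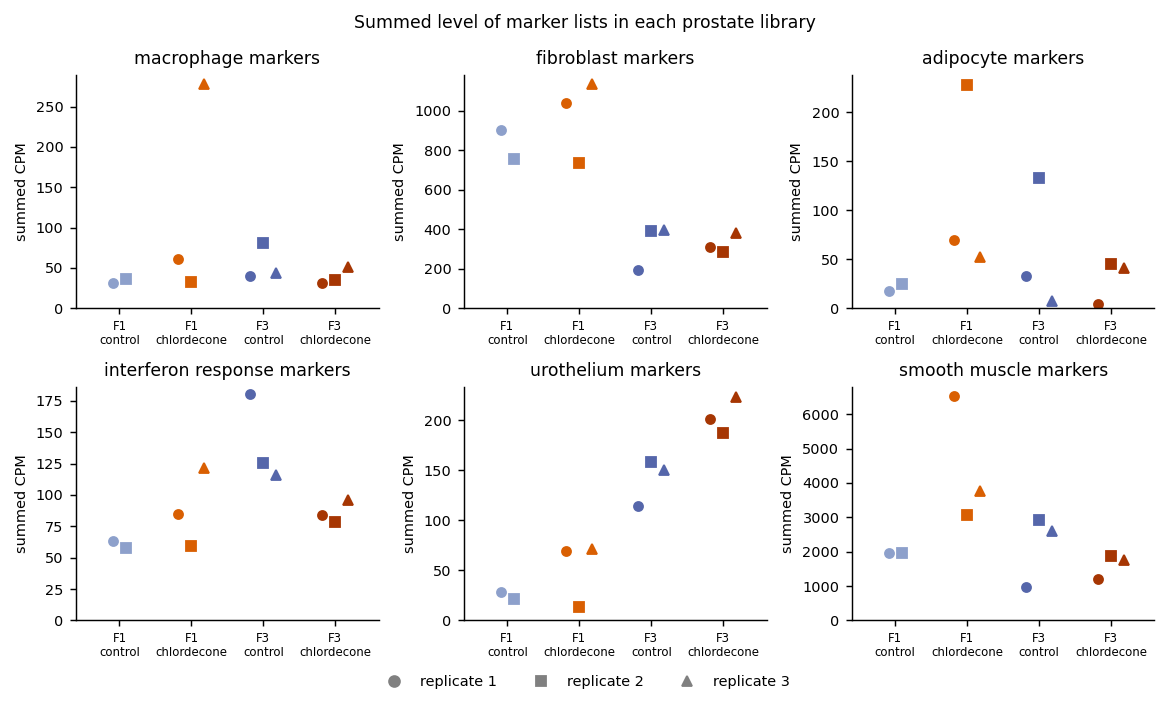
Summed CPM of 6 marker lists in each library (linear axis from 0, symbols are replicates, coloured by group). F1 chlordecone 3 has the highest macrophage sum (277 CPM), and the F3 chlordecone libraries have lower interferon-response sums (78.7 to 96.1 CPM) than the F3 controls (115 to 180 CPM).

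Of 49 other complement genes listed by role, 32 in F1 and 31 in F3 were tested. In F1, 0 of 32 passed with edgeR, 8 had an unadjusted p under 0.05 (11.5% of all genes) and 6 passed with DESeq2 (Clu, Cfd, Cd59a, Itgam, C7 and C1qc, against 3.99% of all genes). The F1 groups did not overlap for 15 of 32 (46.9%), against 31.3% of all genes. The median log2 fold change in F1 was 0.33, with 20 above 0 and 12 below. In F3, 0 of 31 passed with edgeR, 4 (12.9%) had an unadjusted p under 0.05, against 10.6% of all genes, and 0 passed with DESeq2, against 1.48%. There the median was -0.20, with 9 above 0 and 22 below. The F3 groups did not overlap for 2 of 31 (6.45%), against 16.6% of all genes. The 8 initiators tested in F3 were below 0 in 8 of 8, where 48.8% of all genes lay above 0. The 8 also had overlapping groups in 8 of 8 (16.6% of all genes did not overlap). They ran from C1s2 (log2 fold change -0.06, SE 0.19) to C1qb (-0.77, SE 0.33). Among initiators, C1qa, a chain of C1q, was at 5.13 and 3.89 CPM in F1 controls and 9.86, 8.62 and 20.7 CPM after chlordecone (adjusted p = 0.304, edgeR). In F3 C1qa was at 12.5, 17.5 and 13.1 CPM against 7.26, 6.05 and 12.9 CPM (log2 fold change -0.71, SE 0.29, adjusted p = 0.457, edgeR), and chlordecone 3 lay within the control range. Of the alternative pathway, Cfd (factor D, adipsin) was at 2.04 and 2.25 CPM in F1 controls and 14.9, 53.5 and 14.1 CPM after chlordecone (adjusted p = 0.159, edgeR). Cfd was highest in the library with the highest adipocyte sum (228 CPM), F1 chlordecone 2, and its part was not tested.

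Among regulators, Clu, clusterin, an inhibitor of the terminal complex, was at 4.03 and 4.22 CPM in F1 controls and 304, 94.5 and 872 CPM after chlordecone (log2 fold change 6.68, SE 1.03, adjusted p = 0.111, edgeR). In F3 Clu was at 16.5 to 33.5 CPM in controls and 24.2 to 35.8 CPM after chlordecone, with overlap (adjusted p = 0.760, edgeR). Cd59a, an inhibitor of pore formation, was at 3678 and 2979 CPM in F1 controls and 324, 1075 and 1419 CPM after chlordecone (adjusted p = 0.295, edgeR). In F3 Cd59a was 1096, 1202 and 910 CPM in controls and 244, 928 and 927 CPM after chlordecone, where chlordecone 1 was lowest (adjusted p = 0.606, edgeR). C7, of the terminal pathway, was at 1 and 8 counts in F1 controls and 66, 42 and 57 counts after chlordecone (adjusted p = 0.2997, edgeR). Itgam, a C3 fragment receptor of myeloid cells, was at 0.419 and 0.890 CPM in F1 controls and 3.96, 2.18 and 10.8 CPM after chlordecone, and in F3 it was 1.69 to 2.52 CPM against 2.80 to 3.44 CPM, with no overlap (adjusted p = 0.465, edgeR).

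The remaining abundant genes of each role had smaller or less even differences. C1qb, another C1q chain, was at 3.14 and 6.89 CPM in F1 controls and 4.04, 2.56 and 9.39 CPM after chlordecone, with overlap, and averaged 10.97 ± 4.43 against 6.43 ± 1.99 CPM in F3 (SD, n = 3 each, adjusted p = 0.466, edgeR). Cfp, properdin, which stabilises the alternative convertase, was at 5.19 and 5.25 CPM in F1 controls and 6.26, 6.33 and 19.01 CPM after chlordecone. Cd55, which speeds convertase decay, was at 65.4 and 64.9 CPM in F1 controls and 42.0, 38.3 and 50.8 CPM after chlordecone, with no overlap (adjusted p = 0.429, edgeR). In F3 Cd55 averaged 94.4 ± 9.15 CPM in controls and 105 ± 10.2 CPM after chlordecone (SD, n = 3 each), with overlap. Cr1l, a membrane regulator of C3 and C4 fragments, averaged 79.9 and 90.0 CPM in F1 and 104 and 106 CPM in F3, with overlap in both. C8g averaged 5.03 and 6.57 CPM in F1, and Hc (C5) and C6 were below 1 CPM on average in the 4 groups. The receptor genes Cd93, Itgb2 and Cr2 averaged 3.05, 0.609 and 1.89 CPM in F1 controls and 3.05, 4.66 and 1.53 CPM after chlordecone, each with overlap.

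Genes within 200 kb of the members were examined as neighbours. Over all genes tested in F1, 0.0281% passed with edgeR, 3.99% with DESeq2 and 11.5% had an unadjusted p under 0.05. The F3 shares were 0.0596%, 1.48% and 10.6%. Around the chromosome 6 cluster, 12 neighbours were tested in F1 and 13 in F3, and 0 passed in either with edgeR (0 and 2 at an unadjusted p under 0.05, 0 and 1 with DESeq2). Around C2, Cfb and the C4 genes, 1 of 37 passed in F1 with edgeR (6 at an unadjusted p under 0.05, and 2 with DESeq2, Cyp21a1 and Egfl8). The gene past the edgeR threshold was Cyp21a1 (34801348 to 34804561), steroid 21-hydroxylase, at 0 CPM in both F1 controls and 35.1, 19.96 and 21.4 CPM after chlordecone (adjusted p = 0.0163, edgeR). A pseudogene copy of it is known in this region, so its reads are uncertain. In F3, 0 of 37 passed there with edgeR (4 at an unadjusted p under 0.05, 0 with DESeq2). Around C3, 0 of 12 passed in F1 and 0 of 11 in F3, and around Serping1 0 of 13 and 0 of 12. Of these, 1 had an unadjusted p under 0.05 (in F1, near C3) and 0 passed with DESeq2. In F1, neighbours above and below 0 numbered 2 and 10 (chromosome 6 cluster), 22 and 15 (C2, Cfb and C4), 9 and 3 (C3) and 6 and 7 (Serping1). In F3 the same loci had 4 and 9, 5 and 32, 3 and 8, and 3 and 9. Over all genes tested, 51.4% lay above 0 in F1 and 48.8% in F3.

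Other neighbours with the smallest p did not pass with edgeR. In F1 they were C1s2, Grcc10 and Lpcat3 by the C1r and C1s genes, Egfl8 and Slc44a4 by C2, Slc25a23, Trip10 and Gpr108 by C3, and Slc43a3, Med19 and Ube2l6 by Serping1. Egfl8 was at 20.97 ± 1.95 CPM (SD, n = 2) in F1 controls and 9.85 ± 0.904 CPM (SD, n = 3) after chlordecone (adjusted p = 0.226, edgeR). In F3 they were Gm20531, Gm29008 and Gm16567, then 1110038B12Rik, Ly6g6e and Msh5, then Gm11110, Vav1 and Trip10, and Selenoh, Zdhhc5 and Ube2l6. Gm16567, the gene antisense to C1s1, had a log2 fold change of 1.35 in F3 (adjusted p = 0.490, edgeR), where C1s1 had -0.33.

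Across 11 libraries, with each generation centred on its mean, the levels most like C1rl were those of Ptger3 (a prostaglandin receptor, Pearson r = 0.991), Eda (0.964) and Pnrc1 (0.958), among 12583 genes. Ptger3 averaged 37.0 CPM in F1 controls and 14.8 CPM in F1 chlordecone, and 87.7 and 99.7 CPM in F3. These points share their libraries and scaling, and r is a description.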

How the data were processed

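Per the submitters' processing notes, the software comprised DESeq2 1.6.3, HTSeq 0.6.1, Bowtie2 2.1.0, TopHat2 2.0.14 and bcl2fastq 2.17.1.14, with mm10 as the build. Which tool did which step, the annotation and the strand setting of the counting: not given in the sources used here. The authors deposited raw counts per gene, 1 table per generation; the F1 table holds 19091 genes with at least 20 counts in all, and that of F3 holds 26023 genes. Columns headed K were read as chlordecone (kepone), with 0 columns left over; F1 control 3 was not analysed here. Counts were tested within each generation with edgeR 4.0.16 in R 4.3.3 (filterByExpr, minimum count 10 and total 15, TMM, quasi-likelihood F test, two-sided, Benjamini-Hochberg over all genes, threshold 0.05), and the difference between generations in 1 fit of 11 libraries. The fit was run on simulated counts with the same dispersion for every gene, as a check of the fold-change estimates only. Libraries standing apart from their group, as in F1, were not simulated, so that run does not bear on the F1 calls. Alternatives were DESeq2 1.42.0, its size factors, other filters, a replicate block, 1 fit of all libraries and leaving out each library. The members and lists were chosen with earlier results of these data known. The rule named the members, other complement genes with the highest mean CPM in each role, neighbours past the threshold, the 3 with the smallest p per locus and the 3 genes most like C1rl. Levels were compared across tables as descriptions only. The 2 F1 controls differed by a chi-square of 16.6 per gene, above sampling noise. The other F1 pairs of libraries lay at 266 to 599 and the F3 pairs at 60.5 to 339. This measure grows with library depth, so F1 and F3 pairs cannot be ranked against each other by it. Among F1 pairs the 2 controls were the most alike by it, which bears on the F1 control SDs. Their log2 CPM correlated at 0.860, below the 0.934 of F1 chlordecone 1 and 3 and the 0.964 to 0.985 of the F3 pairs.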

Additional observations from a re-analysis of the deposited data

Results flagged for a closer look

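The difference in the chlordecone effect on C1rl between generations, F3 minus F1, was 4.66 on the log2 scale (SE 0.48), past the threshold of edgeR's test of the difference. The effect was -4.19 in F1, where 3 of 3 chlordecone libraries lay below 2 of 2 controls, and 0.39 in F3, where the groups overlapped. That test holds the F1 contrast, on which C1rl is treated as chosen, so it is no evidence of its own and the value is a description.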

How the results depend on the processing

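C1rl kept its direction in F1 under every alternative run, and lost the threshold without control 1, control 2 or chlordecone 3. The number of genes passing in F1, 5, became 21 without a filter and 711 with DESeq2. It became 322 with the replicate block and 930 in 1 fit of all libraries. The members passing became 3 with DESeq2 and 3 in 1 fit. With the block, F1 chlordecone 3 had no control of its number, so it added nothing to the F1 contrast or to the difference. The F1 log2 fold change of C1rl was -3.87 with the block and -3.87 without chlordecone 3. In F3, 10 genes became 38 without a filter, 248 with DESeq2 and 2 in 1 fit, and 0 members passed under each. For the difference, 122 genes became 192 at a mean of at least 1 CPM, 1151 with DESeq2 and 49 with the replicate block, and 1 member became 2 with DESeq2 size factors, 2 at a mean of at least 1 CPM and 3 with DESeq2. Leaving out 1 library gave 0 to 2604 genes and 0 to 4 members in F1 (2604 and 4 without chlordecone 2), 7 to 41 genes and 0 members in F3 (41 without control 1, 17 without control 2), and 27 to 2320 genes and 1 to 4 members for the difference. Directions turned in F1 for C4a (0.0537, replicate block), C1qb (-0.53, replicate block), Cr1l (-0.15, replicate block) and Cd93 (-0.0101 with size factors, -0.0134 at 1 CPM, -0.0102 with DESeq2, -0.28 with the replicate block, -0.0028 in 1 fit), and in F3 for C4b (0.0169, replicate block). With 1 library left out the F1 log2 fold changes ran from -0.91 to 0.14 for C4a, -0.60 to 0.77 for C1qb, -0.0192 to 0.48 for Cr1l, -0.47 to 0.54 for Cd93 and -1.48 to 0.42 for Cr2. In F3 they ran from -0.0286 to 0.255 for C1ra, -0.24 to 0.12 for C2, -0.12 to 0.60 for C3, -0.20 to 0.90 for C4a, -0.54 to 0.19 for C4b, -0.34 to 0.24 for Serping1, -0.22 to 0.11 for C1s2, -1.43 to 1.92 for Cfd, -0.0419 to 0.0623 for Cr1l, -0.15 to 0.31 for Cd93 and -0.39 to 0.24 for Itgb2. A single library left in a group is assumed to vary like the other group. The causes were not tested. Replicate numbers were not taken to pair the samples in the main fit. Deviations of same-numbered F3 libraries correlated at 0.113, 0.00823 and 0.00478, and F3 chlordecone 3 correlated best with control 2 (0.194). Those of same-numbered F1 libraries correlated at 0.0382 and 0.0513. With 2 F1 controls, the values of each chlordecone library are equal and opposite by construction. Deviations from means of so few libraries cannot exclude shared litters.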
